A study of Mus musculus with 6 samples.

Results

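The laminin chains measured here are 9 genes, 4 of the alpha class (Lama2, Lama3, Lama4, Lama5), 3 of the beta class (Lamb1, Lamb2, Lamb3) and 2 of the gamma class (Lamc1, Lamc3). They were chosen by name from the 43432 genes of a table of atrial RNA sequencing, of which 24679 had at least 1 read, and each name matched 1 gene. Atrial RNA came from wild-type C57/Bl6J mice that received either a high-fat diet (HFD, the obese group, n = 3) or control chow (the lean group, n = 3) for 10 weeks from 6 weeks of age, and the tissue held right and left atria. These diets are those of the titles and of the table's columns, whereas the labels' treatment field had the 2 diets swapped throughout. Groups follow the titles, and every direction below would be the opposite if the treatment field were right. Whether a sample was 1 mouse or a pool was not given, so the p-values measure the spread between these samples.

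Laminins are large secreted proteins of the basement membrane, the thin matrix sheet around every cardiomyocyte, smooth muscle cell and capillary. Each is a trimer of an alpha, a beta and a gamma chain joined along a coiled coil, and is named by its chains, so that laminin-211 holds the products of Lama2, Lamb1 and Lamc1. The alpha chain carries the globular domains that bind dystroglycan and integrins on the cell, and the short arms link laminins to each other and, through the gamma 1 chain, to nidogen. Lama2 is the main alpha chain of striated muscle and its loss causes a congenital muscular dystrophy, Lama4 and Lama5 are the alpha chains of blood vessels, and Lama3 and Lamb3 encode chains of laminin-332, known from skin and other epithelia.

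The promoters of the 3 beta chains are shown because Lamb3, unlike Lamb1 and Lamb2, had values that did not overlap between the diets. They are RefSeq windows of GRCm38.p6, each from 250 bases before to 50 bases after a transcript start, written 5' to 3' on the strand of the gene. Capitals mark GC boxes (GGGCGG or its complement CCGCCC) and AP-1 sites (TGANTCA), searched on both strands.
Lamb3 (chr1:193301744-193302043, plus strand): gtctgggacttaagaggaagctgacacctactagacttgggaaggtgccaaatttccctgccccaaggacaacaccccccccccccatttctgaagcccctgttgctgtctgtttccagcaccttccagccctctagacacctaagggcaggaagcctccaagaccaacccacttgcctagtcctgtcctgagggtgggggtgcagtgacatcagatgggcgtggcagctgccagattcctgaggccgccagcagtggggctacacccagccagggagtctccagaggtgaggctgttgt
Lamb1 (chr12:31265043-31265342, plus strand): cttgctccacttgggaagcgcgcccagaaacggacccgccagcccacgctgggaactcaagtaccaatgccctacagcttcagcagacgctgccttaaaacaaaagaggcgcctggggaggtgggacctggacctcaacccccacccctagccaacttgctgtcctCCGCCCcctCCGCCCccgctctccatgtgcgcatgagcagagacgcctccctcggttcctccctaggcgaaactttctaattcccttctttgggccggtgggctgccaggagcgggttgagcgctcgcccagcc
Lamb2 (chr9:108479612-108479911, plus strand): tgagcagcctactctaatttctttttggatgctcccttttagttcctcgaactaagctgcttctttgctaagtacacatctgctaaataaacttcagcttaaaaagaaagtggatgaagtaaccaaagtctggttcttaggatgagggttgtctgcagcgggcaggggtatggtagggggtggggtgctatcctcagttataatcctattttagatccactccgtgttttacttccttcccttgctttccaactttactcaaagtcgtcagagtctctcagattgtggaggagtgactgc
The Lamb1 window held 2 GC boxes and 18 CpG dinucleotides, and the windows of Lamb2 and Lamb3 held no GC box and 4 and 2 CpG dinucleotides. Over the 32851 promoter windows of the same length, the median was 7 CpG dinucleotides, and 35.7% of the windows held a GC box. None of the 3 windows held the AP-1 letters, which 7.81% of all windows held. RefSeq lists a later start of Lamb3, whose window (chr1:193301993-193302292) held 5 CpG dinucleotides and neither motif.

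The values are normalized counts, the reads of a gene divided by 1 size factor per sample. Reads on genes ranged from 15874251 to 28971508 per sample, highest in lean atria 2, and the mitochondrial share was 30.7% there and 19.5% to 24.4% elsewhere. Taking 3 reads as the floor, the limit of detection was 2.05 to 3.41 normalized counts, for counting error only. Log2 fold changes (log2FC) compare obese with lean atria on log2(normalized count + 1), a scale that understates the change of low genes, and were tested with limma over the 15275 genes that averaged 10 normalized counts or more. All 5 atrial cardiomyocyte markers examined (Myl7, Myl4, Sln, Nppa, Myh6) were present, with a summed level of 557783 to 972027 normalized counts in obese and 862964 to 905884 in lean atria.

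Between the diets, Lamb3, the beta chain of laminin-332, was lower in obese than in lean atria (528 ± 93.7 against 790.5 ± 13.5 normalized counts, mean and SD of 3 samples each), and Lamc1, the gamma chain shared by most laminins, was higher (4046 ± 350 against 3204 ± 101.3). Neither difference passed adjustment over all genes in limma. The alpha chains of muscle and vessels had mean levels near each other in both diets, with log2FC values of 0.01 for Lama2, 0.01 for Lama4 and 0.14 for Lama5, and so had the beta chains Lamb1 (0.06) and Lamb2 (0.09). Lama3 and Lamc3 were near the low end of the genes tested, and the intervals of their differences were wide. All 9 laminin chains passed the filter on low values. None had an adjusted p under 0.05 in limma, against 0.746% of all genes tested (0.484% higher and 0.262% lower in obese atria). At an unadjusted p under 0.05 there were 2 of 9, against 12.2% of all genes. These were Lamc1, higher in obese atria as were 6.66% of all genes, and Lamb3, lower as were 5.55%. For the same 2 chains the obese and lean values did not overlap, against 18.0% of all genes (8.86% with all obese samples above and 9.17% with all below). Of the 9 chains, 8 had a log2FC above 0, against 50.8% of all genes, and their median was 0.09, with 0.005 as the median over all genes. A count of 2 of 9 is near these background shares. The 8 chains above 0 take in Lama2 and Lama4, both at 0.01. Over 15 alternative fits the log2FC turned below 0 in 3 for Lama2, 5 for Lama4 and 1 for Lamb2. edgeR on the recovered reads also gave 0 chains with an adjusted p under 0.05, against 87 of the same 15275 genes. DESeq2 gave 1 chain, Lamb3, against 470 of these genes, a larger number than the 114 of limma.

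**Figure D1:**
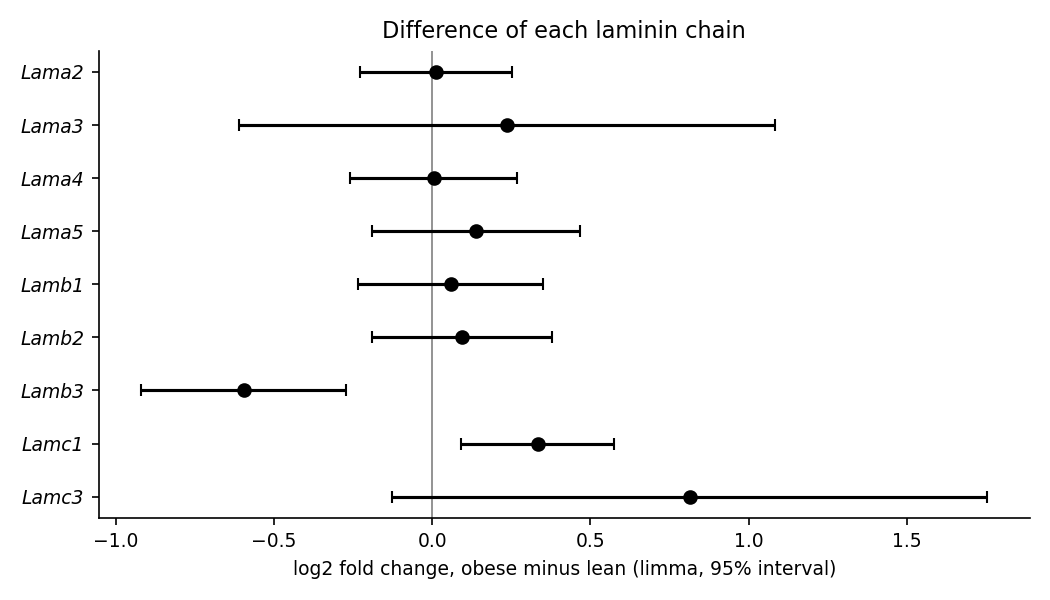
Log2FC of each laminin chain between obese and lean atria (x axis, obese minus lean, in log2 units; points are limma estimates and bars their 95% intervals, n = 3 samples per group). The intervals of Lamb3 (-0.92 to -0.27) and Lamc1 (0.09 to 0.58) lie on one side of 0, and the other 7 include 0.

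Per transcript length, the chains differed in level far more than the diets differed. Lamb2, the beta 2 chain that muscle concentrates at specialised basement membranes, had the highest level, 1476 ± 158 normalized counts per kilobase (SD over 6 samples), on its longest protein-coding transcript. Lamc1, the gamma chain shared by most laminins, followed with 476 ± 67.7. Lamb1 and Lama4 had 285 ± 30.7 and 280.4 ± 22.2, their ranges overlapped, and Lamb1 was above Lama4 in 3 of 6 samples. Next came Lama2 with 170.1 ± 8.83, Lamb3 with 135 ± 32.0 and Lama5 with 87.4 ± 12.8. The ranges of Lama2 and Lamb3 overlapped, as did those of Lamb3 and Lama5, although Lamb3 was above Lama5 in all 6 samples on this length. Lamc3 and Lama3 stood apart at the bottom, with 4.905 ± 2.08 and 3.41 ± 1.08 normalized counts per kilobase and overlapping ranges, and Lama5 was 17.8 times above Lamc3. With the summed exons of each gene as its length, the levels of Lamb1, Lama4 and Lama2 were lower by over 1.5 times (166, 140.5 and 100.1) and that of Lamb3 was 99.7. Lamb1 was then above Lama4 in all 6 samples, still with overlapping ranges, Lama2 was above Lamb3 in the 3 obese but in 0 lean samples, and Lamb3 was above Lama5 in 3 lean but only 1 obese sample.

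**Figure D2:**
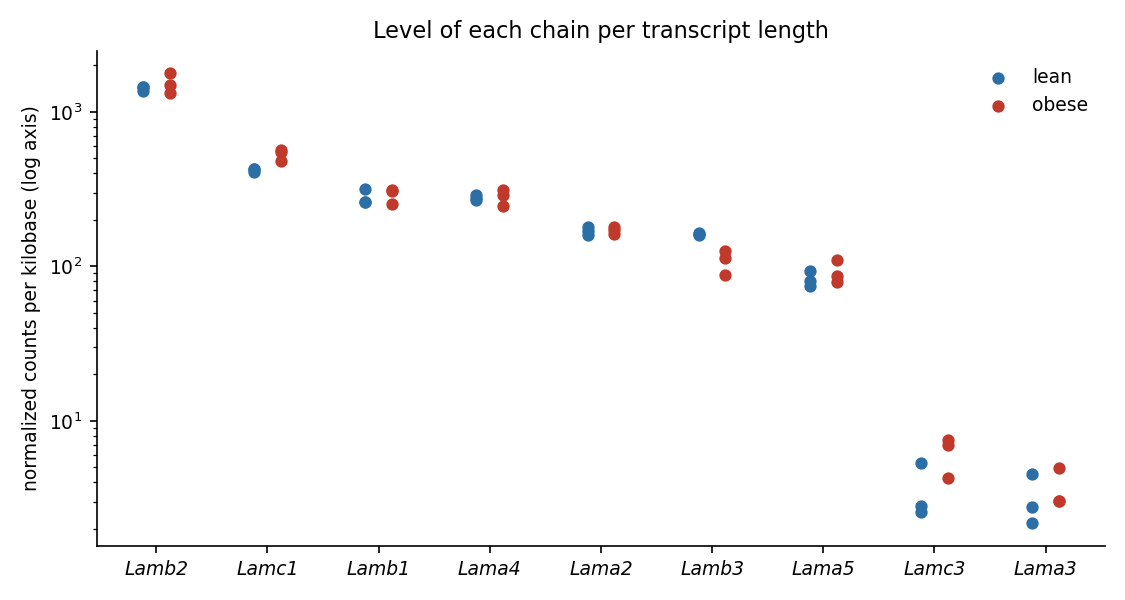
Level of each laminin chain in normalized counts per kilobase of its longest protein-coding transcript (y axis, logarithmic; one point per sample, lean and obese in separate columns). Lamb2 lies above every other chain, between 1326 and 1775, and Lamc3 and Lama3 do not exceed 7.53 in any sample.

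Within each class, 1 or 2 chains made up most of the level per length. Lama4 held 51.3% ± 3.02 of the alpha chain sum in obese and 52.3% ± 2.65 in lean atria (n = 3 per diet, SD), and Lama2 held 31.3% ± 2.67 and 31.7% ± 1.06. Lama5 added 16.8% ± 2.85 and 15.5% ± 1.39, and Lama3 0.667% ± 0.183 and 0.589% ± 0.218. On summed exons, the share of Lama4 was 41.8% ± 3.27 in obese and 43.0% ± 2.78 in lean atria, and that of Lama5 was 27.2% ± 4.03 and 25.4% ± 1.90. Lamb2 held 79.2% ± 1.5 of the beta chain sum in obese and 76.3% ± 0.985 in lean atria. Among the gamma chains examined, Lamc1 held 98.8% ± 0.392 and 99.15% ± 0.393. The sum of the beta chains per kilobase, 1928 ± 249.7 in obese and 1864 ± 71.2 in lean atria, was above those of the alpha chains (548 ± 34.9 and 535 ± 19.1) and gamma chains (537 ± 45.0 and 424 ± 11.8).

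Lama2 (ENSMUSG00000019899, chromosome 10 of GRCm38, 26980036 to 27619758, minus strand), the alpha 2 chain of the muscle laminins, had 1655, 1549 and 1721 normalized counts in obese atria 1, 2 and 3 and 1532, 1735 and 1620 in lean atria 1, 2 and 3. The groups overlapped over nearly their whole range, and no sample stood apart. Its log2FC was 0.01 (standard error 0.11, limma adjusted p = 0.982), and the 95% interval of the fold change ran from 0.854 to 1.19. In GENCODE M21 it shares 631 exon bases with Gm48084, a gene on the opposite strand.

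Lama4 (ENSMUSG00000019846, chromosome 10, 38965515 to 39110188, plus strand), the alpha 4 chain of capillary and muscle basement membranes, had 1484, 1744 and 1879 normalized counts in obese and 1672, 1632 and 1762 in lean atria. Obese atria 1 were the lowest sample and obese atria 3 the highest, so the lean samples lay inside the obese range. The log2FC was 0.01 (standard error 0.12, limma adjusted p = 0.993), with a 95% interval from -0.26 to 0.27.

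Lama5 (ENSMUSG00000015647, chromosome 2, 180176373 to 180225859, minus strand), the alpha 5 chain of mature vessels and epithelia, had 993, 1248 and 896 normalized counts in obese and 849, 1067 and 918 in lean atria. Atria 2 were the highest of each group, and the groups overlapped. Its log2FC of 0.14 had a standard error of 0.15 (limma adjusted p = 0.765), and the 95% interval of the fold change was 0.876 to 1.38.

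Lama3 (ENSMUSG00000024421, chromosome 18, 12333819 to 12583013, plus strand), the alpha 3 chain of epithelial laminins, was close to the low end of the genes tested. It had 32.1, 52.0 and 31.8 normalized counts in obese and 29.1, 47.9 and 23.0 in lean atria, from 21 to 70 reads per sample. Atria 2 were again the highest of each group. The log2FC was 0.24 (standard error 0.38, limma adjusted p = 0.859). The 95% interval of the fold change, 0.655 to 2.12, is wide at this depth.

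**Figure D3:**
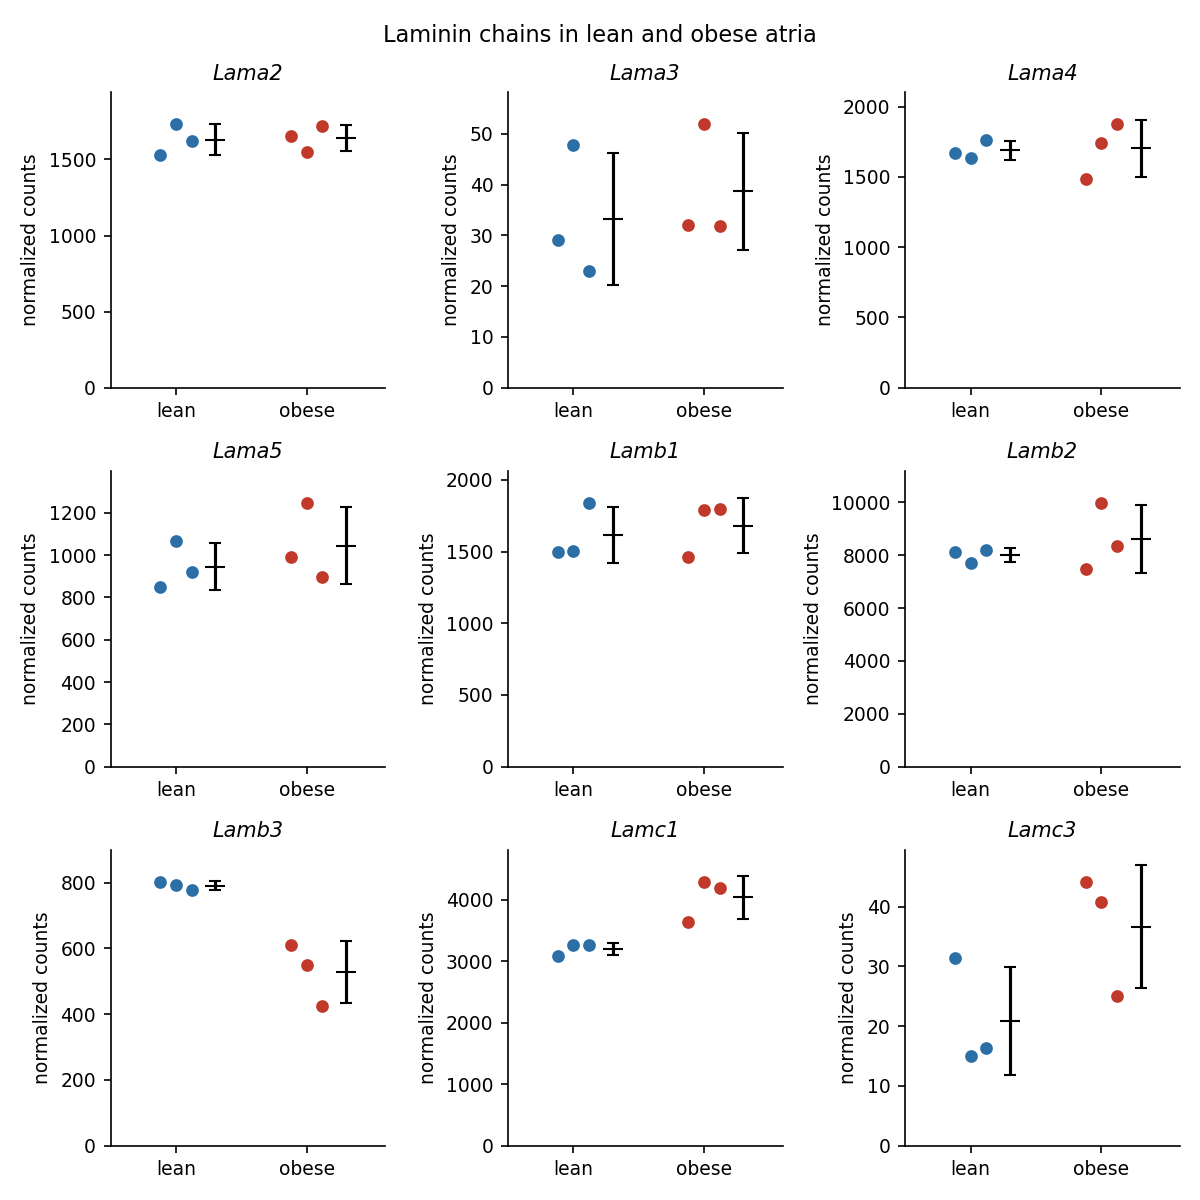
Normalized counts of the 9 laminin chains (y axes from 0, each on its own scale), one point per sample, with the mean and SD of each group (n = 3) beside the points. Obese samples lie below all lean samples for Lamb3 (426 to 610 against 776 to 803) and above them for Lamc1 (3647 to 4298 against 3087 to 3265), and the groups overlap for the other 7 chains.

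Lamb3 (ENSMUSG00000026639, chromosome 1, 193207699 to 193343878, plus strand), the beta 3 chain, had 610, 550 and 426 normalized counts in obese atria and 803, 793 and 776 in lean atria. Every obese sample was below every lean sample. The lean samples lay within 26.7 normalized counts of each other, and the obese samples were spread over 184. The means were 528 ± 93.7 in obese and 790.5 ± 13.5 in lean atria (n = 3 per diet, SD), a log2FC of -0.60 with a standard error of 0.15 (limma, unadjusted p = 0.00206, adjusted p = 0.101). The fitted fold change was 0.662, with a 95% interval from 0.529 to 0.828. The exact permutation test (two-sided) gave p = 0.1, its lowest possible value for 3 samples against 3. DESeq2 on the recovered reads gave a log2FC of -0.58 and an adjusted p of 0.0199, and edgeR gave -0.58 and an adjusted p of 0.117. Over the 15 alternative fits the adjusted p ranged from 0.0199 to 0.327, and the unadjusted p was under 0.05 in all 15. Lamb3 made up 7.35%, 5.14% and 4.65% of the beta chain sum per length in obese atria 1, 2 and 3 and 8.84%, 9.09% and 8.24% in lean atria 1, 2 and 3.

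The gene model of Lamb3 spans 136180 bases, and its reads cannot be assigned to 1 transcript from the deposited values. GENCODE M21 lists 9 transcripts, 4 of them protein-coding. The transcript Lamb3-209, with 27 exons, starts at 193207725, and Lamb3-201, with 23 exons, starts at 193301993, close to the promoter windows given above. Between both starts lie other genes, among them Hsd11b1, the enzyme that regenerates active glucocorticoid, and G0s2, an inhibitor of the lipase ATGL, both on the opposite strand. In the same interval lies Gm37691, an unclassified transcript on the strand of Lamb3. None of the 6 genes that overlap the span shares exon bases with Lamb3. Hsd11b1 had 210.0, 256 and 199.9 normalized counts in obese and 214, 205 and 171 in lean atria, overlapping groups with a log2FC of 0.17 (limma adjusted p = 0.739). G0s2 had 466, 415 and 743 in obese and 778, 564 and 601 in lean atria, also overlapping, with a log2FC of -0.29 (limma adjusted p = 0.640). For Gm37691 all 3 obese samples (143, 123 and 152) were below the lean samples (155, 165 and 169), with a log2FC of -0.23 (limma adjusted p = 0.649). The part of these genes in the Lamb3 result was not tested. They were examined after the Lamb3 values were seen.

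**Figure D4:**
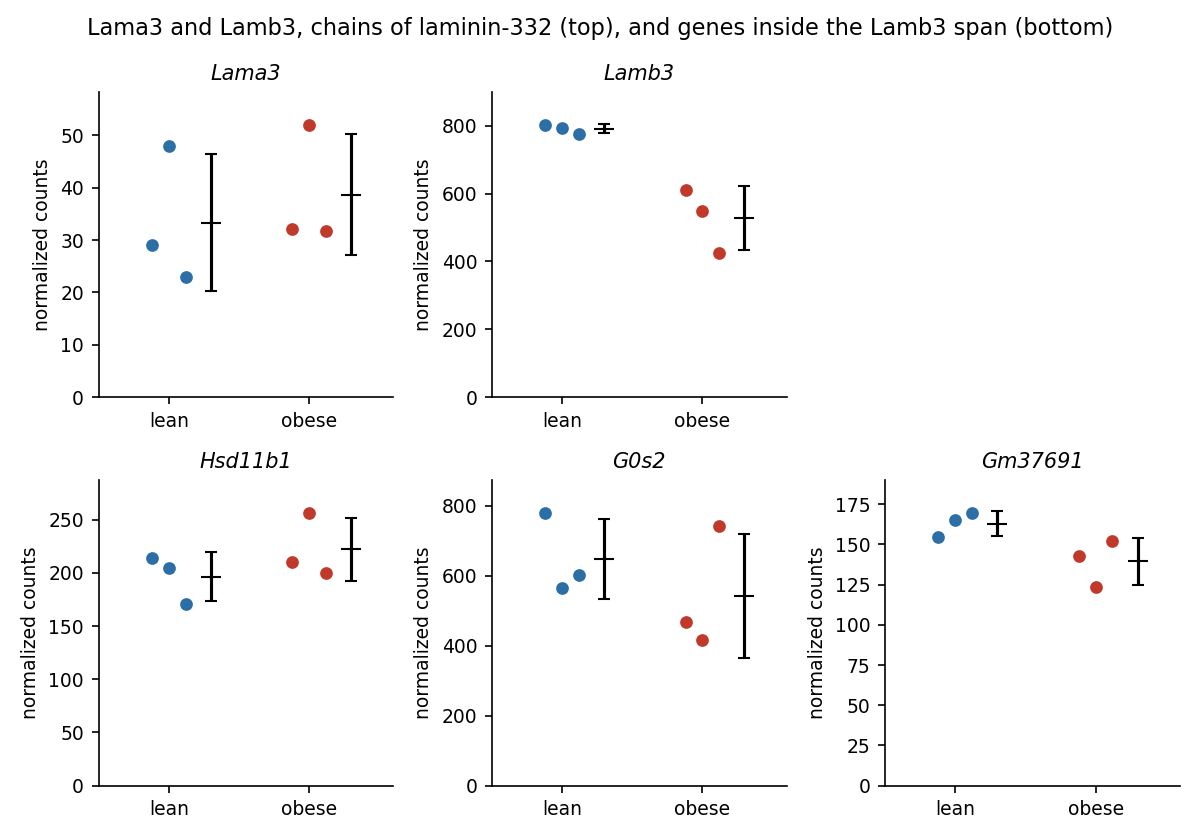
Normalized counts (y axes from 0) of Lama3 and Lamb3, chains of laminin-332 (top row) and of the 3 genes inside the Lamb3 span that passed the filter on low values (bottom row), one point per sample with the mean and SD of each group (n = 3). Lamb3 lies between 426 and 803 in all samples while Lama3 does not exceed 52.0, and Hsd11b1 and G0s2 overlap between the groups.

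The 2 other beta chains overlapped between the diets. Lamb1 (ENSMUSG00000002900, chromosome 12, 31265234 to 31329644, plus strand), the beta 1 chain, present in most laminins of muscle fibres and capillaries, had 1460, 1788 and 1795 normalized counts in obese and 1499, 1503 and 1842 in lean atria. Lean atria 3 were the highest sample and obese atria 1 the lowest. The log2FC was 0.06 (standard error 0.13, limma adjusted p = 0.909). Lamb2 (ENSMUSG00000052911, chromosome 9, 108479736 to 108490530, plus strand), the beta 2 chain, known from the neuromuscular junction and vessel walls, had 7465, 9992 and 8362 normalized counts in obese and 8111, 7708 and 8198 in lean atria. The obese samples spread further (SD 1281 against 262), with obese atria 2 high and obese atria 1 low. The log2FC was 0.09 (standard error 0.13, limma adjusted p = 0.827), and its 95% interval ran from -0.19 to 0.38.

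Lamc1 (ENSMUSG00000026478, chromosome 1, 153218922 to 153332786, minus strand), the gamma 1 chain, had 3647, 4298 and 4195 normalized counts in obese atria and 3087, 3265 and 3259 in lean atria. Every obese sample was above every lean sample. The means were 4046 ± 350 and 3204 ± 101.3 (n = 3 per diet, SD), and the log2FC was 0.33 with a standard error of 0.11 (limma, unadjusted p = 0.0116, adjusted p = 0.228). The fitted fold change was 1.26, with a 95% interval from 1.07 to 1.49, and the exact permutation test (two-sided) gave the smallest possible p, 0.1. Omitting any 1 sample gave values between 0.29 and 0.41.

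Lamc3 (ENSMUSG00000026840, chromosome 2, 31887291 to 31946539, plus strand), the gamma 3 chain, had 44.2, 40.8 and 24.99 normalized counts in obese and 31.4, 15.1 and 16.4 in lean atria, from 15 to 44 reads per sample. Obese atria 3 lay below lean atria 1, so the groups overlapped. The log2FC was 0.81 with a standard error of 0.42 (limma adjusted p = 0.491), and the 95% interval of the fold change ran from 0.916 to 3.37. Counting error alone was large here, since 15 reads have an exact 95% Poisson interval of 8.40 to 24.7. Gm13441, on the opposite strand, shares 382 exon bases with Lamc3 and had 0 reads in all 6 samples.

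Ratios of chains within a sample, taken on log2(normalized count + 1), were compared for 4 pairs. They depend on the size factor only through the added 1. The log2 ratio of Lama4 to Lama2 was 0.05 ± 0.18 in obese and 0.05 ± 0.12 in lean atria (n = 3 per diet, SD, exact permutation p = 1). That of Lama5 to Lama4 was -0.71 ± 0.31 and -0.84 ± 0.20 (n = 3 per diet, SD, exact permutation p = 0.6), and that of Lamb2 to Lamb1 was 2.35 ± 0.13 and 2.32 ± 0.15 (n = 3 per diet, SD, exact permutation p = 0.8). Lamc3 to Lamc1 gave -6.785 ± 0.51 and -7.265 ± 0.60 (n = 3 per diet, SD, exact permutation p = 0.3). The obese minus lean difference of Lamc3 to Lamc1 was 0.48, and 0.51 with 0.1 in place of the added 1. All 4 tests were two-sided and had an adjusted p of 1 over the 4 pairs (Benjamini-Hochberg), and the groups overlapped for each pair.

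For the 3 chains with the highest mean normalized count, the genes with the closest profile over the 6 samples were named by the root mean square difference of their centred log2 values. For Lamb2 these were Pi4ka, Prpf8 and Atg2a (0.032, 0.033 and 0.036 log2 units), against a median of 0.263 over all genes tested. For Lamc1 they were Pde4dip, Neat1 and Mfsd9 (0.037, 0.042 and 0.043, median 0.292), and for Lama4 they were Ttc7b, Fmnl3 and Ccdc85c (0.023, 0.030 and 0.031, median 0.248). Among the laminin chains, Lama4 and Lamb1 differed by 0.079, Lamb2 and Lamb1 by 0.115 and Lamb2 and Lamc1 by 0.145. Lamb3 differed from Lamb2 by 0.406 and from Lamc1 by 0.510.

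Genes that work with laminins were described from lists. Of the remaining laminin chains and the laminin-related netrins, Lama1, the alpha 1 chain of the embryo, had 0 reads in all 6 samples, which allows up to 3 reads per sample. Ntn4, which encodes netrin 4, a protein that binds the laminin gamma 1 chain, had 487, 563 and 474 in obese and 453, 346 and 399 in lean atria, all obese samples above all lean samples, with a log2FC of 0.35 (limma adjusted p = 0.366). Ntn1 had a log2FC of 0.15 (limma adjusted p = 0.751).

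Of 16 other basement membrane components, 15 were tested and 0 had an adjusted p under 0.05 in limma. At an unadjusted p under 0.05, 2 of 15 were higher and 3 of 15 lower in obese atria, against 6.66% and 5.55% of all genes tested, and the median log2FC was -0.05. Col4a1, a chain of the collagen IV network that underlies most basement membranes, had 6518, 9107 and 12449 normalized counts in obese and 5342, 5674 and 5322 in lean atria. All obese samples were above the lean ones, with a log2FC of 0.73 (limma, unadjusted p = 0.00366, adjusted p = 0.130). Its partner Col4a2 had a log2FC of 0.54 with overlapping groups (limma adjusted p = 0.381). Lower in obese atria were Fras1, a matrix protein of the Fraser complex, with a log2FC of -0.69 (limma adjusted p = 0.167) and Col4a6 with -0.50 (limma adjusted p = 0.299), both without overlap, and Col4a3 with -0.76 (limma adjusted p = 0.339), with overlap. The nidogens, which join laminin to collagen IV, had log2FC values of -0.10 for Nid1 and -0.04 for Nid2, and perlecan (Hspg2) had one of 0.15, each with overlapping groups.

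Of 11 laminin receptors, all were tested, 0 had an adjusted p under 0.05 in limma, and 1 of 11 had an unadjusted p under 0.05, against 12.2% of all genes, with a list median of -0.01. The 3 with the smallest p were Sdc2, a syndecan, with a log2FC of -0.26 (limma, unadjusted p = 0.0425, adjusted p = 0.385), Sdc4 with 0.31 (limma adjusted p = 0.424) and Dag1, which encodes dystroglycan, with 0.28 (limma adjusted p = 0.469). Dag1 had 6699, 9001 and 7545 normalized counts in obese and 5652, 6250 and 7191 in lean atria. For Dag1 only obese atria 1 lay inside the lean range. Itgb1, the beta chain of the laminin-binding integrins of muscle, had 7622, 8068 and 7329 in obese and 5870, 6617 and 7383 in lean atria, overlapping groups with a log2FC of 0.22 (limma adjusted p = 0.516), and the muscle laminin integrin Itga7 had one of 0.12.

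The dystrophin complex, which ties dystroglycan to the cytoskeleton, had 11 genes tested, 0 with an adjusted p under 0.05 in limma. The median log2FC was 0.05. At an unadjusted p under 0.05 there was 1 of 11, lower in obese atria, against 5.55% of all genes (12.2% in either direction). That gene was Sgca, which encodes alpha-sarcoglycan, with 1435, 1338 and 1345 normalized counts in obese and 1850, 1818 and 1462 in lean atria and a log2FC of -0.31 (limma adjusted p = 0.339). All obese samples were below the lean ones. In this list 1 gene lay below and 2 lay above without overlap, against 9.17% and 8.86% of all genes. Next by p came Dtna with a log2FC of 0.27 (limma adjusted p = 0.464). Of 13 enzymes that build the laminin-binding sugar of dystroglycan, 12 were tested, again 0 with an adjusted p under 0.05 in limma. The list median was -0.12. At an unadjusted p under 0.05 there was 1, higher in obese atria, against 6.66% of all genes (12.2% in either direction). B4gat1, a glucuronyltransferase of this sugar, was not that gene (limma, unadjusted p = 0.0624, adjusted p = 0.442). Its log2FC was -0.24, with all obese samples below the lean ones, as for 9.17% of all genes. Pomgnt2 had a log2FC of -0.22 (limma adjusted p = 0.593).

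**Figure D5:**
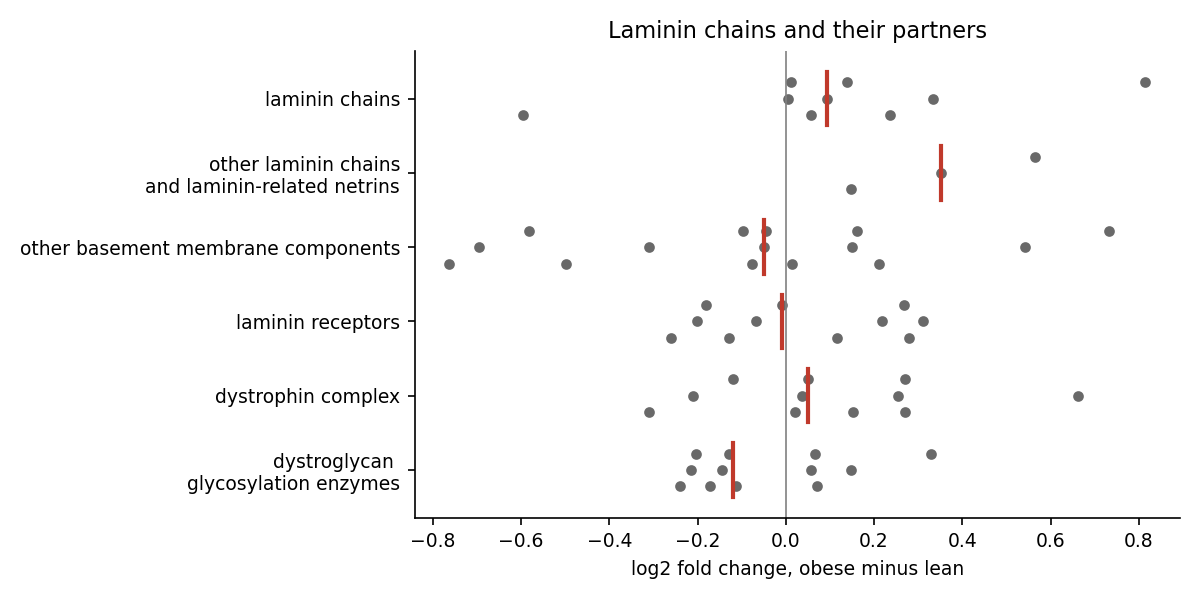
Log2FC (x axis, obese minus lean) of the genes tested among the laminin chains and in 5 lists of partner genes (rows), one point per gene with the median as a vertical line. The medians lie between -0.12 and 0.35, and the laminin chains spread from -0.60 for Lamb3 to 0.81 for Lamc3.

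In bulk tissue, fewer cells of a type and less RNA per cell cannot be told apart, so markers of the cells that make laminins are given beside these values. The 6 endothelial markers had a summed level of 15372 to 16980 normalized counts in obese and 12934 to 13755 in lean atria, without overlap. All 6 of these markers had a log2FC above 0, and 1 of them, Pecam1, had an unadjusted p under 0.05 (log2FC 0.57, limma adjusted p = 0.0504). Without Pecam1, the other 5 summed to 9731 to 10721 in obese and 8829 to 9736 in lean atria and overlapped, and Cdh5 had a log2FC of 0.04. The 5 pericyte and smooth muscle markers summed to 11179 to 11681 in obese and 9603 to 10874 in lean atria, also without overlap. Of these, 3 had a log2FC above 0, and 0 had an unadjusted p under 0.05. Summed levels overlapped for the 5 fibroblast markers (26229 to 29659 against 27650 to 32702), the 6 epicardial markers (1429 to 2255 against 1428 to 2191), the 4 Schwann cell markers (839 to 1091 against 927 to 1095) and the 5 white adipocyte markers (482 to 1866 against 283 to 1335). The 3 brown adipocyte markers (Ucp1, Cidea, Elovl3) summed to 443.6 to 1139 in obese and 145 to 269.8 in lean atria, and 2 of them, Ucp1 and Cidea, rose in obese atria (limma adjusted p = 0.0446 and 0.0310). The 4 ventricular markers summed to 6882 to 9866 in obese and 7919 to 17399 in lean atria, and the 3 macrophage markers to 2558 to 2772 and 2279 to 2732. Red blood cell markers (3 genes) summed to 990.4 to 1504 and 921 to 1358, and lymphocyte markers (3 genes) did not exceed 23.5 in any sample. Of the 5 lung epithelium markers, Sftpb and Scgb1a1 were at 0 in all 6 samples and the sum did not exceed 13.0. Of the 5 atrial cardiomyocyte markers, none had a log2FC above 0, and Myl7 (-0.66) and Sln (-0.32) had an unadjusted p under 0.05. Myl7 was at 31186, 27168 and 58765 normalized counts in obese atria 1, 2 and 3, against 56346 to 60190 in lean atria. Sln was at 23714, 19693 and 19799 in obese atria 1, 2 and 3, against 25151 to 27600 in lean atria. Among the Schwann cell markers, Sox10 was lower (log2FC -0.85) and Mbp higher (0.30) in obese atria at an unadjusted p under 0.05, each with an adjusted p above 0.05 in limma. The same held for Lum of the fibroblast list (-0.33), Krt19 of the epicardial list (0.59) and Myh7 of the ventricular list (-0.41). A log2FC above 0 was found for 1 of 5 fibroblast, 3 of 6 epicardial and 0 of 4 ventricular markers. The part of these cell types in the laminin results was not tested.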

How the data were processed

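Atrial RNA of 3 obese and 3 lean samples was sequenced by the authors, aligned with STAR to GRCm38 with uniquely mapped reads kept, annotated to Ensembl genes with Salmon and compared with DESeq2. Strand use in the counting and tool versions were not given in the sources used here. The values the authors deposited are a signal, each gene's reads scaled by a DESeq2 size factor per sample (normalized counts). The authors' own fold changes, test statistics and p-values stand in the same table and were not used. Division by the lowest value above 0 of a sample recovered whole reads (within 0.001) for 100% of values.

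Members were matched to the table's capitalised names without regard to case and checked against Ensembl identifiers. GENCODE M21 (GRCm38) named 42462 of 43432 identifiers (97.8%) and gave transcript lengths. A row (n = 1) without an identifier held 0 in all samples and was left out. Obese and lean atria were compared in limma 3.58.1 in R 4.3.3 (eBayes with a variance trend, no covariates, Benjamini-Hochberg over all genes tested, threshold 0.05) on log2(normalized count + 1), and single values with a two-sided exact permutation test in scipy 1.17.1. The script was tested on simulated data.

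Members and lists were chosen with earlier results of these data known. All 9 members are named, and in each list the 3 tested genes with the smallest p, except for genes that are not reported here. Others (Col4a2, Col4a3, Nid1, Nid2, Hspg2, Itgb1, Itga7, the genes inside the Lamb3 span) and the profile distances of Lamb3 were chosen after their values were seen. Alternatives were a pseudocount of 0.1, no filter, a minimum of 10 in every sample, no variance trend, quantile normalization, mitochondrial genes left out, edgeR 4.0.16 with TMM and DESeq2 1.42.0 on the recovered reads, the replicate number as a block, each sample left out, and summed exons as length. The shares and order on summed exons and the endothelial sum without Pecam1 were added after seeing the data. Genes that share reads with near-identical copies or with antisense genes are uncertain.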

Additional observations from a re-analysis of the deposited data

How the results depend on the processing

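Of 135 log2 fold changes of the 9 chains over 15 alternative fits, 125 kept their direction and their side of the threshold, and 1 passed it, that of Lamb3 with DESeq2 (-0.58, adjusted p = 0.0199). DESeq2 gave 470 genes and 1 laminin chain with an adjusted p under 0.05. Limma without a variance trend gave 0 genes, with 1717 at an unadjusted p under 0.05. With 1 sample left out in turn there were 14 to 342 genes, each omission moving the count by over 1.5 times, and 0 laminin chains. The direction turned in 9 fits of chains whose log2 fold change was near 0: with quantile normalization Lama2 had -0.034 and Lama4 -0.035, and with 1 sample left out Lama2 ranged from -0.032 to 0.058, Lama4 from -0.069 to 0.10 and Lamb2 from -0.018 to 0.19 (below 0 without obese sample 2). Lamb3 and Lamc1 had an unadjusted p under 0.05 in all 15 fits, and Lamc3 in 2 (without obese sample 3 and without lean sample 1). The cause of these moves was not tested. With summed exons as length, the levels per kilobase were 100.1 for Lama2, 140.5 for Lama4, 166 for Lamb1 and 99.7 for Lamb3, lower since these genes have more annotated exon sequence than their longest transcript. The labels tie no same-numbered samples to each other. The deviations of same-numbered samples correlated at 0.12, -0.03 and -0.004 across genes, and not every sample correlated best with its own number. With 3 samples per group, these correlations cannot show whether same-numbered samples share more than a number. With the number as a replicate block, limma gave 157 genes and 0 laminin chains. Depth limits Lama3 and Lamc3, at 15 to 70 reads per sample.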

Other observations

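Lama3 and Lamb3, whose products join in laminin-332, were far from equal in level. Per kilobase of its longest protein-coding transcript, Lamb3 exceeded Lama3 by 41.1, 22.9 and 29.0 times in obese atria 1, 2 and 3 and by 59.8, 35.9 and 73.3 times in lean atria 1, 2 and 3. The groups overlapped, and this ratio was chosen after its values were seen and was not tested. The genes closest in profile to Lamb3 over the 6 samples were Bank1, Gm10687 and Dglucy, with root mean square differences of 0.053, 0.072 and 0.076 log2 units, against a median of 0.410 over all genes tested.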
